A study of Mus musculus with 17 samples.

Results

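Integrins are receptors built from 1 alpha and 1 beta subunit through which a cell grips the extracellular matrix, and 9 subunits that bind matrix are described here: the alpha subunits Itga1, Itga3, Itga5, Itga8, Itga11 and Itgav, and the beta subunits Itgb1, Itgb3 and Itgb5. They were taken by gene name from the table of 55421 genes, where each name had 1 entry. After the filter on low counts (more than 10 CPM, counts scaled to a common library size, in at least 2 libraries) 8 of the 9 were among the 10481 genes tested. Itga11 was below it.

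Total RNA-Seq was performed on lung cells from 17 mice, 1 library per mouse, all carrying the floxed Ephb4 alleles and the Col1a2-CreERT2 transgene (Ephb4f/f; Col1a2-CreERT2). Ephb4 CKO mice had received 4-hydroxytamoxifen (1 mg a day for 5 days) at 4 weeks of age, which removes Ephb4 in cells in which the Col1a2 promoter drives the recombinase, and Ephb4 control mice had received corn oil, so the groups compared differ in the drug as well as in the gene. At 6 weeks the mice were given bleomycin (1.2 U/kg into the trachea), which damages the lung and leads to fibrosis, or PBS, and 14 days later fibroblasts were grown out of the lungs, passaged 1 time and lysed with no further treatment. There were 4 Ephb4 control PBS, 4 Ephb4 control bleomycin, 5 Ephb4 CKO PBS and 4 Ephb4 CKO bleomycin mice, numbered here within each group. Each group held mice labelled male and mice labelled female. Of the Ephb4 control PBS mice, mouse 1 alone was labelled male.

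Each alpha subunit sets which matrix protein the receptor recognises, and the beta subunit carries the signal inward to talin, kindlin and the actin cytoskeleton. Itgb1 pairs with most of the alpha subunits described: with Itga1 or Itga11 it binds collagen, with Itga3 it binds laminin, with Itga5 it is the main fibronectin receptor, and with Itga8 it binds nephronectin and the latent form of TGF-β1. Itgav pairs with Itgb1, Itgb3 or Itgb5 to bind vitronectin, fibronectin and latent TGF-β, and in the lung such receptors are known for activating TGF-β when a contracting cell pulls on its matrix.

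Total counts per library were 66540022 to 120554468, so counting error is small beside the spread between mice for all subunits but Itga11. For Itga8 it weighs in the libraries with few counts, down to 4, while its levels ranged from 0.0450 to 26.5 CPM. Ephb4 itself, the deleted gene, was at 38.5 CPM ± 21.3 (SD, n = 4) in Ephb4 control bleomycin and 9.64 ± 3.70 (n = 4) in Ephb4 CKO bleomycin libraries, and at 16.0 ± 15.3 (n = 4) and 9.66 ± 8.09 (n = 5) after PBS. Its ranges overlapped after bleomycin, at 13.1 to 65.1 CPM in control and 4.93 to 14.0 CPM in CKO libraries. After PBS the control range of 2.32 to 33.4 CPM held the whole CKO range of 4.01 to 23.6 CPM. Sex-linked genes went against the labelled sex in 3 libraries, those of mouse 2 among the Ephb4 control and of mice 1 and 2 among the Ephb4 CKO mice given bleomycin. Whether the labels of these libraries, and so their groups, were swapped was not tested. The labelled cell type was checked against 14 fibroblast markers (Col1a1, Col1a2, Dcn, Pdgfra and others), whose summed level was 7472.1 to 14136.2 CPM in Ephb4 control bleomycin libraries but 26.5 to 8491.5 in Ephb4 control PBS, 67.7 to 2272.3 in Ephb4 CKO PBS and 46.2 to 2459.6 in Ephb4 CKO bleomycin libraries. In 1 Ephb4 control PBS library 11 of these 14 markers were under 1 CPM, while Lyz2, a macrophage gene, ranged from 862.9 to 36874.3 CPM across the libraries. The libraries therefore differed in their content of fibroblast RNA, and in such bulk samples fewer cells of a type and less RNA per cell cannot be told apart.

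The 4 promoters below are those of the subunits with an unadjusted edgeR p under 0.05 in at least 1 comparison (for Itga11 in the fit over every gene with a count), given to show what precedes their start sites (250 bases before to 50 after the start, RefSeq, GRCm38.p6). Capitals mark GGGCGG, the core of the GC box, and GGAATG, the core recognised by TEAD factors, on either strand.
Itga5 promoter (chr15:103366742-103367041, reverse strand): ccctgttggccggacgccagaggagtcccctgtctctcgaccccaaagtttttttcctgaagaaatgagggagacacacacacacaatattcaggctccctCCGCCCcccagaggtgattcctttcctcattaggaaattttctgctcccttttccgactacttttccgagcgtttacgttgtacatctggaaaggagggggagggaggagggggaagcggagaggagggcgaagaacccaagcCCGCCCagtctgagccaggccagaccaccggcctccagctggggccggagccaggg
Itga11 promoter (chr9:62677605-62677904, forward strand): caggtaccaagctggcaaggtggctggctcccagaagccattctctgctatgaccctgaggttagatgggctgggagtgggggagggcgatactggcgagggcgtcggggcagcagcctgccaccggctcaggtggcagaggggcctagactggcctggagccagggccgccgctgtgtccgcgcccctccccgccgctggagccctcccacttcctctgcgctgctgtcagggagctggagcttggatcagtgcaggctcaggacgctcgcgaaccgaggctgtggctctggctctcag
Itgb1 promoter (chr8:128685404-128685703, forward strand): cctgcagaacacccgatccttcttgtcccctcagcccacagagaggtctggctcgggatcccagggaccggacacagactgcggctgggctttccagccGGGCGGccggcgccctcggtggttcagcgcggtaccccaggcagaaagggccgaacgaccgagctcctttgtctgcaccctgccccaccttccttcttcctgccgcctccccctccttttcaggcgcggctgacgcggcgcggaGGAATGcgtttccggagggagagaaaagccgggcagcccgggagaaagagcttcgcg
Itgb5 promoter (chr16:33829415-33829714, forward strand): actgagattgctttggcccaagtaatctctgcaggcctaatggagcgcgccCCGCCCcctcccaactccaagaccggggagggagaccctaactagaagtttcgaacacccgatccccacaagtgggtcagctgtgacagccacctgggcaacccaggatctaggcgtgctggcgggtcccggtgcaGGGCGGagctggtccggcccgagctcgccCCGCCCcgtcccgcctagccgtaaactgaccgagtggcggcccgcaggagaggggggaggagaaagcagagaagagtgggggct
The Itga11 window holds neither motif. The genes lie at chr15:103344286-103366763 (Itga5, ENSMUSG00000000555, reverse strand), chr9:62677826-62783982 (Itga11, ENSMUSG00000032243, forward), chr8:128685654-128733200 (Itgb1, ENSMUSG00000025809, forward) and chr16:33829665-33949338 (Itgb5, ENSMUSG00000022817, forward) in GENCODE M21 on GRCm38. Their windows were GC-rich, at 58.7% for Itga5, 68% for Itga11, 67.3% for Itgb1 and 65.7% for Itgb5 against a median of 52.7% over 32851 promoters of that length. GGGCGG occurred in 2 places in the Itga5, 1 in the Itgb1 and 3 in the Itgb5 window, and 35.7% of all promoters held it at least 1 time. GGAATG occurred in the Itgb1 window alone of the 8 promoters that could be matched (14.7% of all promoters). No promoter was matched for Itgb3. The AP-1 motif TGANTCA (7.81% of all promoters), the CArG box bound by serum response factor (1.63%), TATAAA (13.6%) and CCAAT (37.4%) occurred in none of the 8, on either strand. These counts describe letters in a window, and no binding was measured.

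Per length of exon (RPKM, here the CPM per kilobase of exon), Itgb1 was the most abundant subunit in every library of all groups. Its RPKM was 168.5 in Ephb4 control PBS (mean, SD 77.4, n = 4), 253.2 in Ephb4 control bleomycin (SD 25.3, n = 4), 156.2 in Ephb4 CKO PBS (SD 42.1, n = 5) and 126.3 in Ephb4 CKO bleomycin libraries (SD 21.8, n = 4), and its range did not overlap that of Itgb5, next in order, in any group. Itgb5 followed at 28.5 to 61.0 RPKM (group means), and Itga5 was the most abundant alpha subunit by mean in 3 groups at 13.7 to 37.6. The order of alpha subunits rests on the length used. Union exons gave Itgav 10744 and Itga5 4933 bases, and the longest transcripts 7054 and 4415. In Ephb4 control PBS libraries Itga3 (14.5 RPKM, SD 18, n = 4) and Itga5 (14.4, SD 6.46) did not differ beyond their spread. Group means were 7.94 to 12.1 RPKM for Itgav, 6.29 to 14.8 for Itga3, 3.75 to 5.31 for Itgb3, 0.831 to 1.77 for Itga1, 0.257 to 2.1 for Itga8 and, last in every group, 0.114 to 0.79 for Itga11. Of the 32 pairs of neighbours in these 4 orders, 9 had ranges that did not overlap.

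The question put by the first comparison was how these receptors differed between Ephb4 CKO and control mice after bleomycin challenge. After bleomycin all 8 subunits tested had a lower fitted level in the CKO than in the control mice (median log2 fold change −0.80, against 0.01 over all genes tested). None passed an adjusted p of 0.05 with edgeR, as was true of every gene (0.0% of 10481), and 2 (Itga5 and Itgb1) had an unadjusted p under 0.05, beside 9.18% of all genes lower and 11% higher at that level. With DESeq2 the same 2 subunits passed an adjusted p of 0.05, where 2.42% of all genes did so as lower. The levels of 3 subunits (Itga5, Itgav and Itgb1) did not overlap between the groups, beside 12.2% of all genes tested that were lower without overlap. The study had put Itga5 and Itgb1 on its own list of matrix genes from these same samples, so their direction is not independent evidence.

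Itga5, the fibronectin receptor subunit, was at 318.6, 135.0, 141.5 and 147.4 CPM in the Ephb4 control bleomycin mice 1 to 4 and at 74.7, 86.2, 54.4 and 54.1 CPM in the Ephb4 CKO bleomycin mice. Every control library was above every CKO library, and control mouse 1 stood far above the other 3 control mice. The group means were 185.6 CPM ± 88.8 and 67.4 CPM ± 15.8 (SD, n = 4 each), a log2 fold change of −1.46 (SE 0.36, edgeR unadjusted p = 0.00106, adjusted p = 0.187) or 2.76-fold lower. An exact permutation test of the log2 CPM gave p = 0.0286, the smallest that 4 against 4 mice allow. DESeq2 gave the same fold change with an adjusted p = 0.0124. Without control mouse 1 the log2 fold change was −1.09, and the mean of the other 3 control mice was 141.3 CPM.

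Itgb1, the shared beta subunit, was at 1048, 893.7, 1048 and 1143 CPM in Ephb4 control bleomycin mice and at 574.0, 605.6, 416.5 and 465.7 CPM in Ephb4 CKO bleomycin mice. The groups did not overlap, at 1033 ± 103.3 and 515.4 ± 89.1 CPM (SD, n = 4 each), 2.0-fold lower in the CKO mice. The log2 fold change was −1.0 (SE 0.31, edgeR unadjusted p = 0.00507, adjusted p = 0.197), DESeq2 gave an adjusted p = 0.0405, and the exact permutation p was 0.0286. For Itgb1 and Itga5 the higher CKO mice were mice 1 and 2, whose animal numbers begin with 12, as in all control bleomycin mice. With the number series (11 or 12) as a covariate the edgeR log2 fold change was −0.74 for Itgb1 and −1.44 for Itga5. In series 12 alone it was −0.79 and −1.18. Beyond these fits the part of the series was not tested.

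Itgav, the alpha subunit of the TGF-β-activating receptors, was at 113.9, 110.1, 135.6 and 159.2 CPM in the control and at 102.0, 93.8, 99.5 and 46.0 CPM in the CKO mice after bleomycin. The groups did not overlap (exact permutation p = 0.0286), but the gap between them was narrow, and the log2 fold change of −0.60 (SE 0.44, edgeR adjusted p = 0.410) was smaller than 2 standard errors. Of its beta partners, Itgb5 was at 240.0, 230.3, 206.2 and 190.6 CPM in the control mice and at 216.7, 235.0, 97.2 and 86.4 CPM in the CKO mice. The CKO mice were split, mice 1 and 2 lying inside the control range and mice 3 and 4 at under 100 CPM. The log2 fold change was −0.45 (SE 0.34, edgeR adjusted p = 0.435). Mice 1 and 2 are also the CKO mice whose sex-linked genes went against their labels, and their animal numbers begin with 12, as those of all 4 control bleomycin mice do, while those of mice 3 and 4 begin with 11. Their part in the result cannot be told apart from the other differences between these mice. Without the 3 libraries that went against the labelled sex, the log2 fold changes were −1.25 for Itgb5, −1.94 for Itga5 and −1.33 for Itgb1 (edgeR adjusted p = 0.301 for each), with 3 control and 2 CKO mice. Within animal numbers beginning with 12, mean Itgb5 was 225.9 CPM in 2 CKO and 216.8 CPM in 4 control mice.

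Itgb3, the partner of Itgav in the vitronectin receptor, was at 70.0, 20.1, 17.6 and 17.6 CPM in the control and at 18.9, 26.9, 33.9 and 8.84 CPM in the CKO mice. Apart from control mouse 1, the control levels lay inside the CKO range. The log2 fold change of −0.50 (SE 0.73, edgeR adjusted p = 0.692) became 0.24 without that mouse.

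The collagen receptor subunits were at lower levels. Itga1 was at 14.8, 45.4, 31.7 and 39.6 CPM in the control and at 5.87, 26.0, 25.8 and 6.72 CPM in the CKO mice after bleomycin, with overlap (log2 fold change −1.03, SE 0.72, edgeR adjusted p = 0.394). Itga11 was at 5.32, 5.01, 3.14 and 2.75 CPM against 0.274, 2.97, 0.516 and 0.0822 CPM, where only CKO mouse 2 reached the control range. These CKO levels rest on 30, 317, 42 and 7 counts. The exact permutation p for Itga11 was 0.0571, and in a fit over every gene with a count its log2 fold change was −2.11 (SE 1.22, edgeR adjusted p = 0.502). Exons of Itga1 overlap those of Gm49395 on the same strand, so reads could be divided between the 2 genes.

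Itga8, which marks alveolar fibroblasts and myofibroblasts, was at 11.2, 22.9, 14.0 and 13.9 CPM in the control and at 4.54, 12.3, 0.430 and 0.188 CPM in the CKO mice. CKO mice 3 and 4 were far below every control mouse, and CKO mouse 2 lay inside the control range. The fitted log2 fold change was −1.83 with an SE of 1.73 (edgeR adjusted p = 0.529), and the exact permutation p was 0.0571. The Itga8 value was −3.17 without CKO mouse 2, −5.44 without the 3 libraries that went against the labelled sex and −0.87 in animal numbers beginning with 12 alone. Itga3, the laminin receptor subunit of epithelia, was at 64.1, 17.5, 36.4 and 35.7 CPM against 50.7, 8.15, 72.9 and 11.8 CPM, with no separation (log2 fold change −0.10, SE 1.14, edgeR adjusted p = 0.966, 2-SE interval −2.38 to 2.18).

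**Figure D1:**
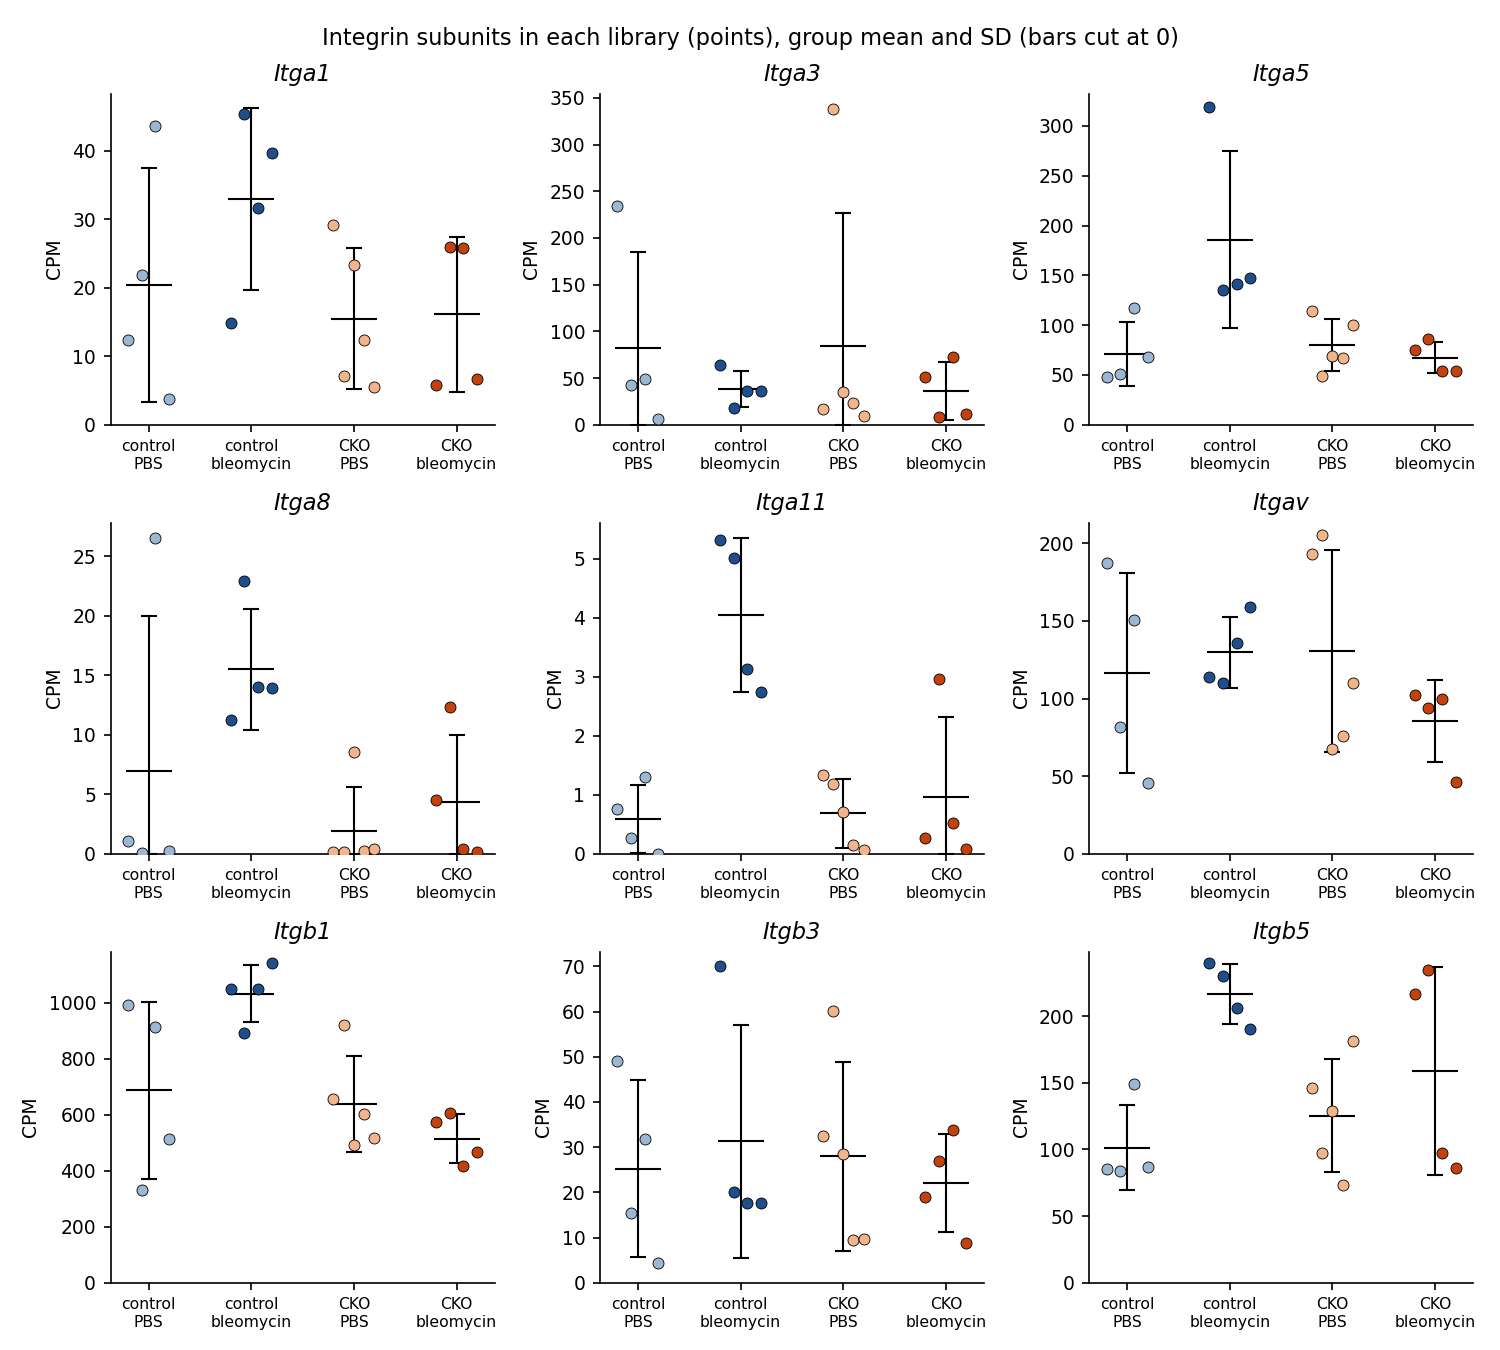
CPM of each integrin subunit (vertical axes, linear and starting at 0) in every library, by group, with the group mean and SD as bars (SD bars cut at 0). Itga5 and Itgb1 in Ephb4 control bleomycin mice lie at 135.0 to 318.6 and 893.7 to 1143 CPM, above all Ephb4 CKO bleomycin mice, while Itgb5 in Ephb4 CKO bleomycin mice splits into 2 high and 2 low libraries.

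The second comparison set bleomycin against PBS in mice that kept Ephb4. Animal numbers began with 12 in all 4 control bleomycin mice and in control PBS mouse 1. They began with 11 in control PBS mice 2, 3 and 4, so bleomycin and the number series largely coincided. Of the 8 subunits tested 7 were higher after bleomycin than after PBS in these mice (median log2 fold change 0.64, against −0.06 over all genes). No subunit passed an adjusted p of 0.05 with edgeR (0.0% of all genes). Itga5 and Itgb5 had an unadjusted p under 0.05, a level reached by 6.28% of all genes as higher and 7.98% as lower, and Itga5 alone passed an adjusted p of 0.05 with DESeq2 (0.935% of all genes, higher). Itga5 and Itgb5 were higher without overlap, as were 5.72% of all genes tested. Itga11, which was below the filter and so not among those genes, was also higher without overlap. This comparison and the first share the 4 Ephb4 control bleomycin mice, so a high value in those mice enters both with opposite signs. With the number series as a covariate, edgeR log2 fold changes were 1.34 (Itga5), 0.82 (Itgb5), 0.2 (Itgb1) and 0.73 (Itga1). For the other subunits tested they were 2.77 (Itga8), −0.45 (Itgav), −0.33 (Itgb3) and −1.99 (Itga3). Beyond that fit the part of the number series in this comparison was not tested.

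Itga5 was at 48, 51.0, 117.0 and 68.1 CPM in the Ephb4 control PBS mice, below each of the 4 bleomycin mice given above. The log2 fold change was 1.39 (SE 0.36, edgeR unadjusted p = 0.00161, adjusted p = 0.268), or 2.61-fold, and DESeq2 gave an adjusted p = 0.0239. Itgb5 was at 85.2, 84.2, 149.1 and 87.2 CPM after PBS, where mouse 3 stood above 3 close libraries but below all bleomycin libraries. Its log2 fold change was 1.10 (SE 0.35, edgeR unadjusted p = 0.00649, adjusted p = 0.293), or 2.14-fold, with DESeq2 at an adjusted p = 0.0813. The exact permutation p was 0.0286 for both genes.

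Itga11 was at 0.763, 0.270, 1.31 and 0 CPM after PBS against 2.75 to 5.32 CPM after bleomycin (exact permutation p = 0.0286). Mouse 4 had 0 counts, which allows up to 3. In the fit over every gene with a count its log2 fold change was 2.87 (SE 1.26, edgeR unadjusted p = 0.0370, adjusted p = 0.549). Itga8 was at 1.11, 0.0450, 26.5 and 0.270 CPM after PBS. Control PBS mouse 3 exceeded every bleomycin mouse and the other 3 were below all of them, so that the mean of 6.97 CPM was 0.476 CPM without mouse 3.

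Itgb1 was at 991.3, 332.1, 913.2 and 514.2 CPM after PBS, a spread of 316.0 CPM (SD) that left its difference short of the test (log2 fold change 0.59, SE 0.30, edgeR unadjusted p = 0.0725, adjusted p = 0.384). Itgav, at 187.0, 81.6, 150.9 and 45.4 CPM after PBS, spanned its bleomycin levels (log2 fold change 0.16, SE 0.44). Itgb3 was at 49.1, 15.4, 31.8 and 4.36 CPM after PBS, a range that held 3 of its 4 bleomycin levels (log2 fold change 0.32, SE 0.73). Itga1 was at 12.3, 21.9, 43.6 and 3.80 CPM (log2 fold change 0.69, SE 0.71). Itga3 was the subunit with a lower fitted level after bleomycin (log2 fold change −1.11, SE 1.15, edgeR adjusted p = 0.648), at 234.2, 42.1, 49.0 and 5.68 CPM after PBS, a difference set by mouse 1: without it the log2 fold change was 0.25.

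Without bleomycin, and within the CKO mice, no subunit passed the edgeR test, the exact permutation test or the adjusted threshold with DESeq2. Between Ephb4 CKO and control mice after PBS the log2 fold changes ran from −1.88 (Itga8) to 0.31 (Itgb5), with a median of 0.09. None of the 8 had an unadjusted p under 0.05, beside 1.99% of all genes, and none passed the adjusted threshold with edgeR (0.0% of genes) or DESeq2 (0.00954%). The 2 groups overlapped for all 9 subunits, where 0.248% of genes tested did not overlap. The value for Itga8 turned on 2 libraries, being −4.89 without CKO mouse 3 and 2.0 without control mouse 3. For Itga5 the interval of 2 standard errors around 0.17 was −0.50 to 0.85, and for Itgb1 around −0.11 it was −0.68 to 0.47. In the 5 Ephb4 CKO PBS mice Itga5 was at 113.9, 49.4, 69.5, 67.3 and 100.3 CPM and Itgb1 at 655.0, 922.2, 493.0, 602.3 and 515.6 CPM, both inside the span of the Ephb4 control PBS mice.

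Between bleomycin and PBS in Ephb4 CKO mice the log2 fold changes ran from −1.24 (Itga3) to 1.20 (Itga8), with a median of −0.28, none had an unadjusted p under 0.05 (0.964% of all genes did), and none passed the adjusted threshold with edgeR (0.0%) or DESeq2 (0.00954%). The Itga8 value was −0.14 without CKO bleomycin mouse 2, and the Itga3 value was 0.75 without CKO PBS mouse 2. With the 2 sorted stretches of the deposited columns as a covariate, DESeq2 gave Itga8 3.21 (SE 1.37, DESeq2 unadjusted p = 0.0195). That value did not pass the adjusted threshold. Here too all 9 overlapped, with 0.0859% of genes not overlapping. Itga5 was at 67.4 CPM ± 15.8 (SD, n = 4) after bleomycin and 80.1 ± 26.3 (n = 5) after PBS, a log2 fold change of −0.25 (SE 0.34), and Itgb5 was at 158.8 ± 77.9 and 125.4 ± 42.1 CPM, a log2 fold change of 0.34 (SE 0.32). The remaining subunits in the 5 Ephb4 CKO PBS mice ranged from 5.46 to 29.1 CPM for Itga1, 9.83 to 337.8 for Itga3, 0.122 to 8.51 for Itga8, 0.0619 to 1.33 for Itga11, 67.6 to 205.4 for Itgav, 9.39 to 60.2 for Itgb3 and 73.2 to 181.7 for Itgb5.

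Whether bleomycin acted differently in the 2 genotypes was tested by the interaction. For 7 of the 8 subunits the response to bleomycin was smaller or more negative in CKO than in control mice, with a median difference of −0.70 on the log2 scale against 0.00 over all genes. Itga5 had an unadjusted p under 0.05 (log2 difference −1.64, SE 0.49, edgeR unadjusted p = 0.00476, adjusted p = 0.916), as did 1.57% of all genes with a negative difference, and Itgb1 was at the edge (−0.89, SE 0.42, edgeR unadjusted p = 0.05, adjusted p = 0.916). No subunit and no gene passed the adjusted threshold with edgeR (0.0%) or DESeq2 (0.0%), and DESeq2 gave Itga5 an unadjusted p = 0.00142 and Itgb1 an unadjusted p = 0.0338.

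**Figure D2:**
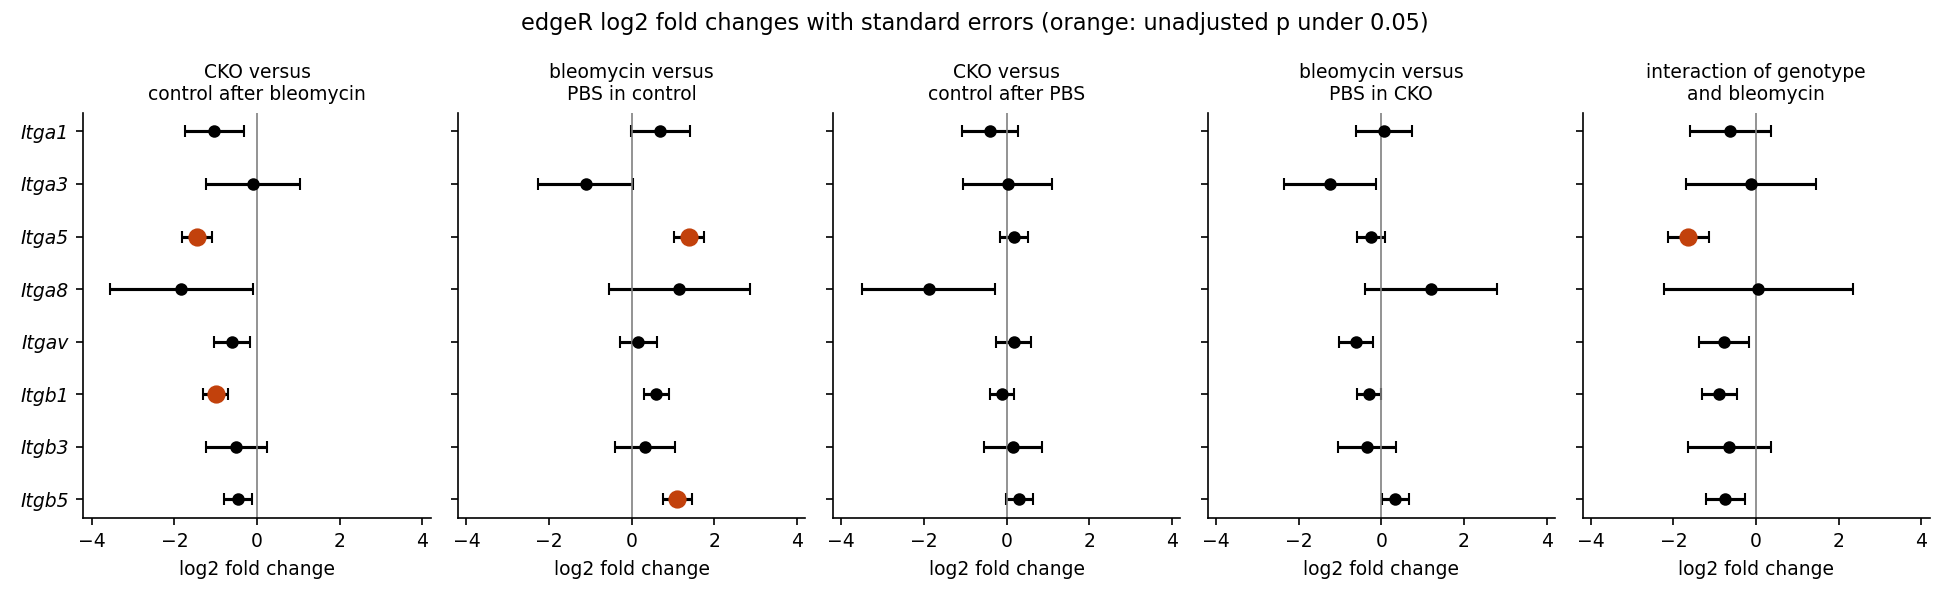
edgeR log2 fold changes (horizontal axes, points) with standard errors (bars) of the 8 subunits tested in the 4 comparisons and the interaction, with orange marking an unadjusted p under 0.05. Orange points stand at Itga5 (−1.46) and Itgb1 (−1.0) for CKO versus control after bleomycin, at Itga5 (1.39) and Itgb5 (1.10) for bleomycin versus PBS in control mice, and at Itga5 (−1.64) for the interaction.

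The make-up of the receptor set was then compared within libraries, which does not depend on library size. Itgb1 made up 73.4% to 82.4% of the summed beta RPKM (group means), Itgb5 15.6% to 24.4% and Itgb3 1.63% to 2.27%. Among alpha subunits Itga5 made up 42.5% to 59.8%, Itgav 21.1% to 28.3%, Itga3 10.6% to 27.1%, Itga1 2.33% to 3.29%, Itga8 0.865% to 3.83% and Itga11 0.225% to 1.34%. With longest transcripts as lengths the share of Itgav was larger. In Ephb4 CKO PBS mouse 1 Itgav then held 45.9% and Itga5 43.3%, against 39.2% and 50.3% with union exons. Of 18 exact permutation tests of these shares, unadjusted, 1 had a p under 0.05, about as many as chance alone would give. It was that of Itga11, the subunit below the filter on low counts. The share of Itga11 was 1.15%, 2.07%, 1.18% and 0.965% in Ephb4 control bleomycin mice and 0.215%, 0.198%, 0.488% and 0% in Ephb4 control PBS mice, with no overlap (exact permutation p = 0.0286). Between CKO and control mice after bleomycin none of the 9 shares had a p under 0.05. The nearest was Itgav at 26.6% ± 1.69 against 21.1% ± 6.54 (SD, n = 4 each, exact permutation p = 0.114). Itga3 took 59.4% of the alpha total in Ephb4 control PBS mouse 1 and 66.5% in Ephb4 CKO PBS mouse 2, but 4.56% to 36.9% in the other 15 libraries.

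**Figure D3:**
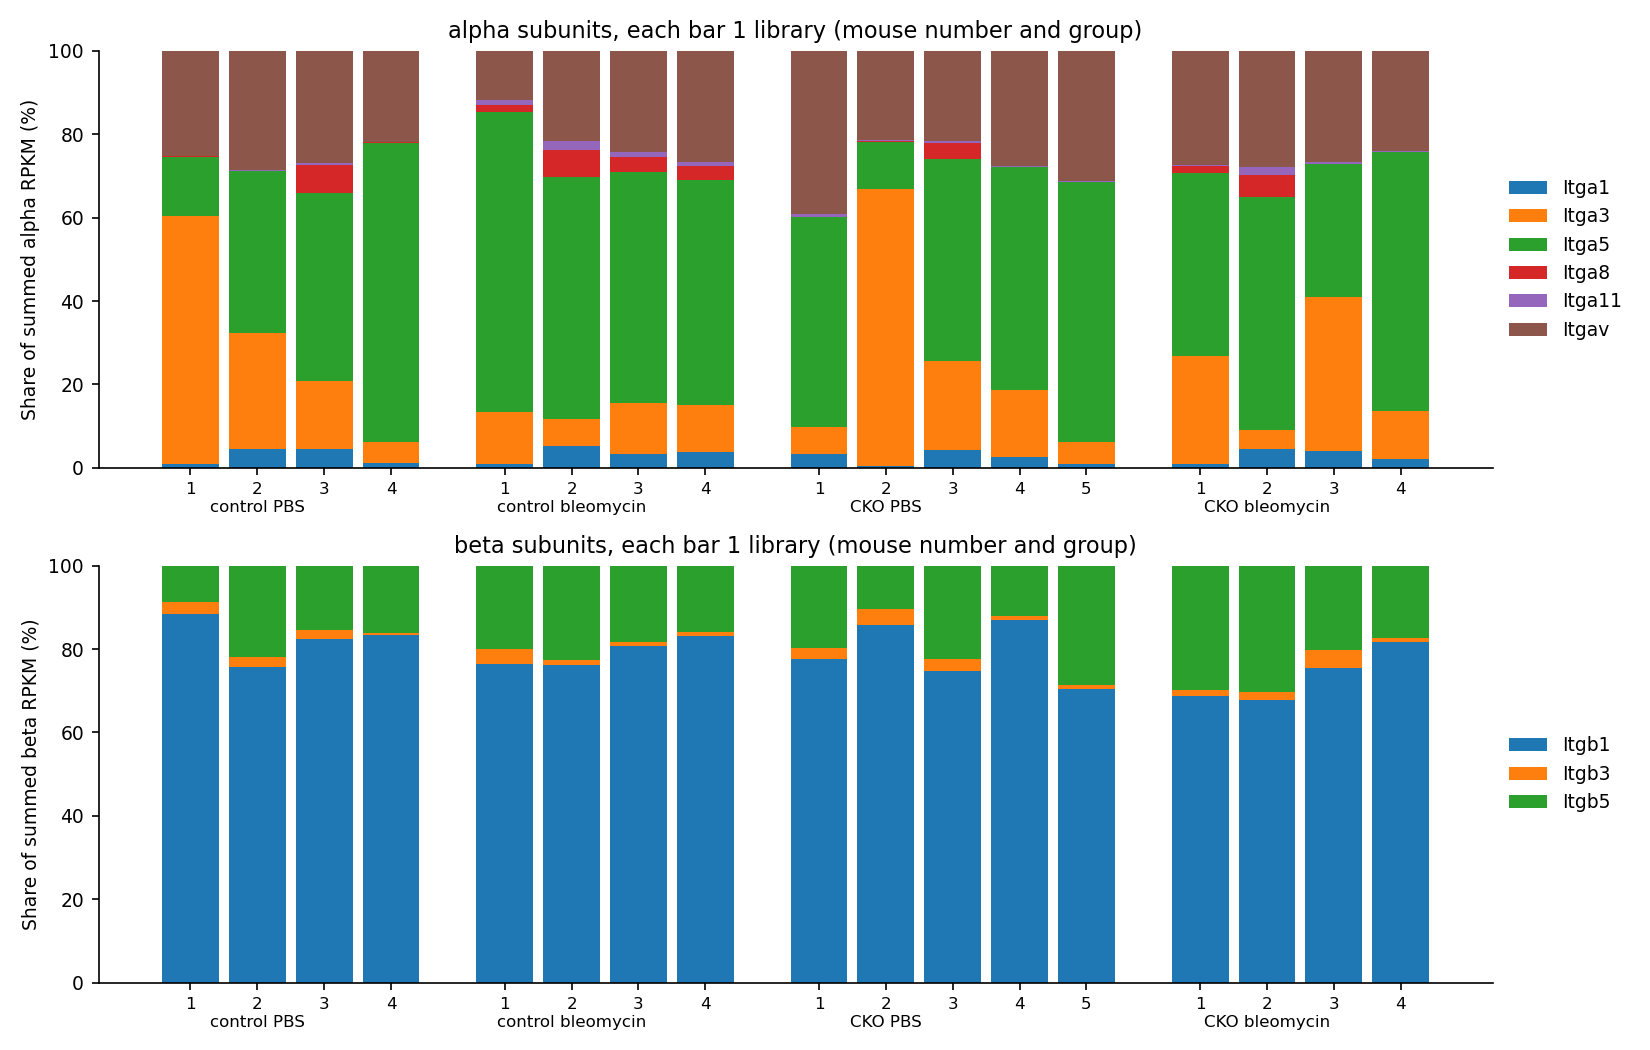
Share of each subunit in the summed RPKM of the 6 alpha subunits (top) and the 3 beta subunits (bottom), in percent, with 1 bar per library labelled by mouse number and group. Itga5 and Itgav fill most of the alpha bars except in Ephb4 control PBS mouse 1 and Ephb4 CKO PBS mouse 2, where Itga3 holds 59.4% and 66.5%, and Itgb1 fills most of every beta bar.

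The subunits did not move as 1 block across the 17 libraries. Pearson's r of log2 CPM between pairs of subunits ran from −0.19 (Itga3 and Itgb5) to 0.78 (Itga5 and Itgb5), with Itga8 and Itgb5 at 0.76 and Itga1 and Itga11 at 0.76. These values, and all correlations given here, are descriptions over 17 libraries of 4 groups that share library depth and cell content. The highest correlation of Itga5 with any gene tested was with Crtap, a collagen prolyl hydroxylation factor (r = 0.95), then Bin1 (0.90) and Nudt3 (0.90). For Itgb1 the nearest genes were Alg14 (0.95), a glycosylation enzyme, Sptan1 (0.93), a spectrin, and Ppfibp1 (0.93), and for Itgb5 they were B3galnt1 (0.97), Chst14 (0.93), a dermatan sulfotransferase, and Itsn1 (0.92). Itga8 was nearest to Mylk, the myosin light chain kinase, Bnc2 and Tgfbr3 (0.97 each), and Itga11 to Rbfox2 (0.96), Fbln2 (0.95), a matrix glycoprotein that is also on the fibroblast marker list, and Rab34 (0.95). Itgav was nearest to Luzp1 (0.91), Ggps1 (0.90) and Abhd13 (0.90), Itgb3 to Stk38l (0.95), Smad7 (0.93), an inhibitor of TGF-β signalling, and Cd276 (0.93), and Itga1 to Plxdc2 (0.88), Rbbp9 (0.87) and Wipi1 (0.87). Itga3 was nearest to Slc4a11 (0.99), Irx2 (0.98) and Chmp4c (0.98).

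Beside these levels stand the marker scores, each the mean log2 CPM of a list of cell type markers. The fibroblast score (12 of 14 markers tested) was 2.95 ± 3.45 in Ephb4 control PBS, 8.29 ± 0.40 in Ephb4 control bleomycin, 2.94 ± 2.0 in Ephb4 CKO PBS and 3.65 ± 2.54 in Ephb4 CKO bleomycin libraries (mean ± SD, n = 4, 4, 5 and 4). All 12 fibroblast markers tested were lower in CKO than control mice after bleomycin (3 with an unadjusted p under 0.05, median log2 fold change −3.01), and all 18 macrophage markers tested were higher (5 with an unadjusted p under 0.05, median 1.17). Of all genes tested, 9.18% were lower and 11% higher at that level. Itga8 had r = 0.93 with the fibroblast score over the 17 libraries (Spearman's rho 0.87, r = 0.92 without the 2 libraries farthest from the median score), Itga11 0.83, Itgb5 0.81, Itga5 0.76, Itga1 0.70, Itgb1 0.63, Itgb3 0.46, Itgav 0.39 and Itga3 0.09. With the macrophage score all subunits went down, with Spearman's rho of −0.80 for Itgb1, −0.75 for Itga11, −0.72 for Itgav and −0.64 for Itgb3. The rho was −0.56 for Itga1, −0.45 for Itga3, −0.36 for Itga5, −0.31 for Itga8 and −0.24 for Itgb5. Pearson's r gave another order, with −0.65 for Itga5, −0.63 for Itgb3, −0.60 for Itga11 and −0.57 for Itgb1. It was −0.37 for Itga3 and Itga8, −0.32 for Itgav and −0.29 for Itga1 and Itgb5. Of the 7 endothelial markers 6 were lower and 1 higher in CKO than control mice after bleomycin, none with an unadjusted p under 0.05. With the smooth muscle score (Acta2, Tagln, Myh11, Cnn1 and Des) r was 0.88 for Itga8, 0.82 for Itga11 and 0.79 for Itgb1. It was 0.75 for Itgb5, 0.64 for Itga5, 0.51 for Itgb3, 0.48 for Itga1, 0.47 for Itgav and 0.27 for Itga3. All 5 smooth muscle markers were lower in CKO than control mice after bleomycin (none with an unadjusted p under 0.05, median log2 fold change −2.56). In bleomycin versus PBS in control mice all 5 were higher (3 with an unadjusted p under 0.05, median 3.42), as were all 12 fibroblast markers tested (2 under 0.05, median 2.4), while 15 of 18 macrophage (1 under 0.05, median −0.93), 5 of 7 endothelial and 6 of 6 epithelial markers were lower. In that comparison 6.28% of all genes tested were higher and 7.98% lower at an unadjusted p under 0.05. The fibroblast and smooth muscle scores moved with the first and second comparisons. The study uses Acta2, a gene of the smooth muscle list, as a marker of activated fibroblasts, so that score need not mark smooth muscle cells. The part of cell content in these comparisons was not tested beyond a fit with the fibroblast score as a covariate. There the CKO versus control log2 fold change after bleomycin was −0.98 for Itga5, −0.72 for Itgb1, −0.12 for Itgav and −0.45 for Itga3. It was 0.10 for Itga1, 1.47 for Itga8, 0.46 for Itgb3 and 0.17 for Itgb5 (edgeR adjusted p = 0.999 for each of these subunits). In that fit the second comparison gave 0.86 for Itga5 and 0.32 for Itgb5 (edgeR adjusted p = 0.998 for both).

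Itga3 went with epithelial and not with fibroblast markers. Its r with the epithelial score (Epcam, Cdh1, Krt8, Krt18, Sftpc and Cldn4) was 0.84 (rho 0.90, 0.82 without the 2 farthest libraries). Itgb3 had r = 0.48 with that score (rho 0.57, 0.62 without the 2 farthest libraries), beside 0.46 with the fibroblast score. For the remaining subunits r with the epithelial score ran from −0.34 (Itgb5) to 0.22 (Itgav). The 2 libraries with the highest epithelial scores, Ephb4 control PBS mouse 1 at 7.93 and Ephb4 CKO PBS mouse 2 at 7.54, held the 2 highest Itga3 levels at 234.2 and 337.8 CPM. The summed epithelial marker level was 114.7 to 2249.2 CPM in Ephb4 control PBS, 195.8 to 1197.4 in Ephb4 control bleomycin, 111.7 to 2608.4 in Ephb4 CKO PBS and 30.8 to 1109.6 in Ephb4 CKO bleomycin libraries, and Sftpc had at most 3 counts in some CKO libraries. The control bleomycin mouse 1, which held the highest Itga5 and Itgb3 levels, had a macrophage score of 3.61 where the other 16 libraries had 6.67 to 9.37.

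**Figure D4:**
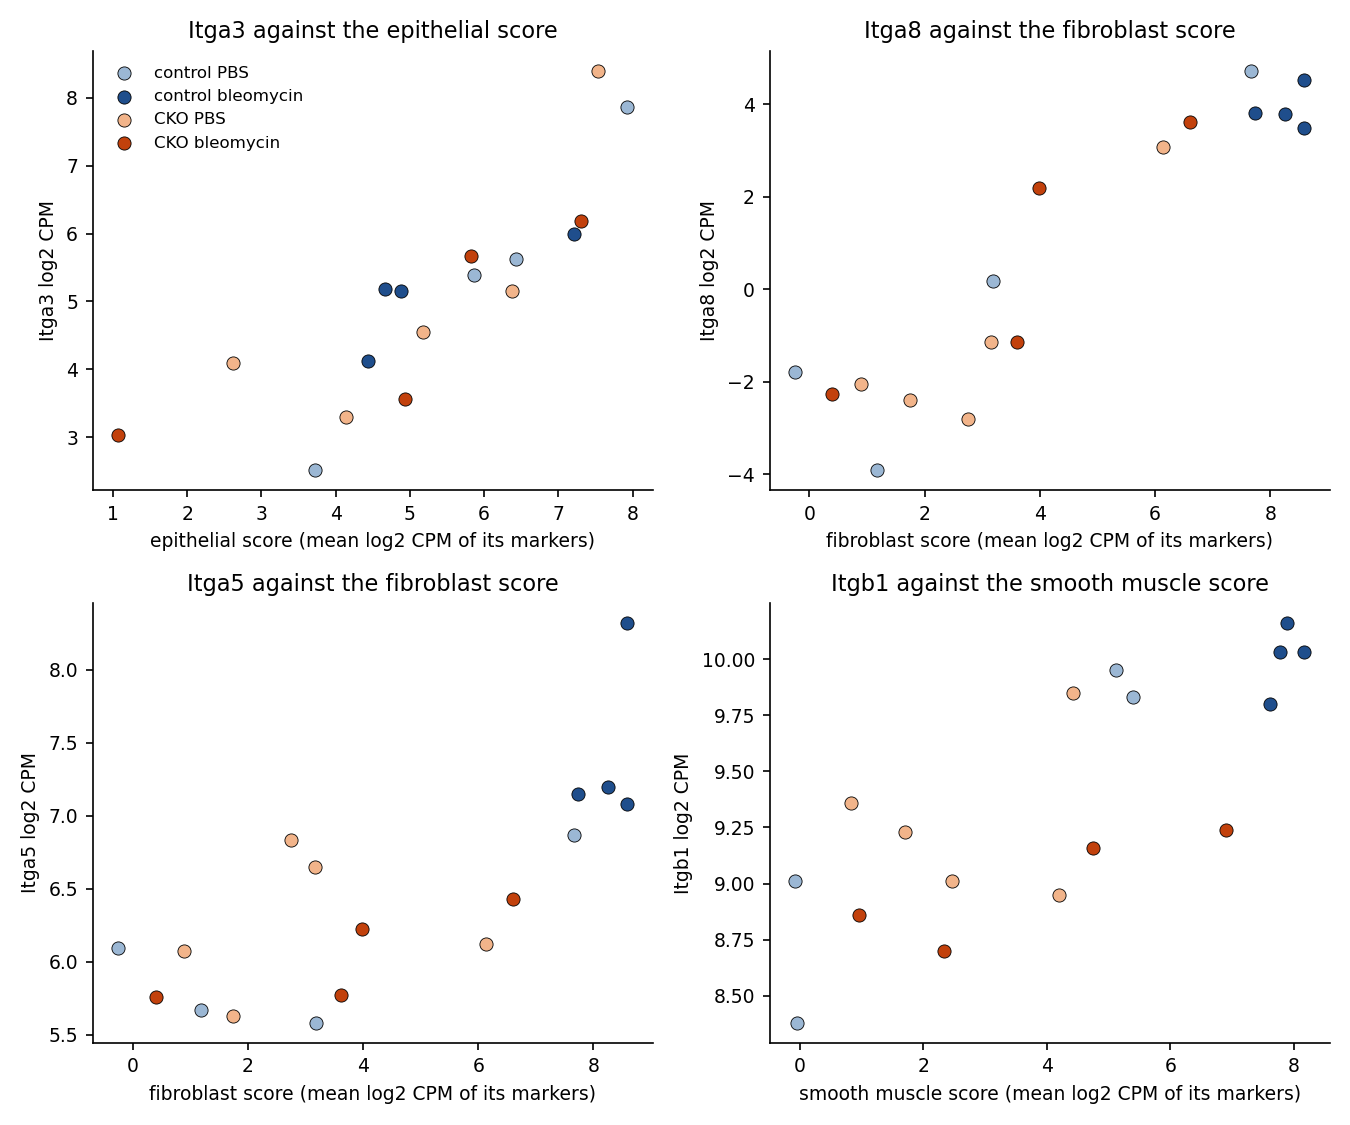
log2 CPM of Itga3, Itga8, Itga5 and Itgb1 (vertical axes) against a marker score, the mean log2 CPM of its markers (horizontal axes), with 1 point per library coloured by group. Itga3 climbs with the epithelial score (r = 0.84) and Itga8 with the fibroblast score (r = 0.93), and the 4 Ephb4 control bleomycin libraries sit at the high end of the fibroblast and smooth muscle scores.

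The integrins of leukocytes stood on the other side. Of 6 leukocyte integrin genes 5 were tested, and all 5 were higher in CKO than in control mice after bleomycin, 3 with an unadjusted p under 0.05 (median log2 fold change 1.49), a level that 11% of all genes reached as higher. These were Itgal (1.49, SE 0.61), Itgax (1.94, SE 0.81) and Itgad (1.93, SE 0.82), with edgeR adjusted p = 0.223, 0.225 and 0.228. All 5 were lower after bleomycin than after PBS in control mice, again 3 with an unadjusted p under 0.05 (7.98% of all genes, lower): Itgal (−1.49, SE 0.61), Itgad (−1.81, SE 0.82) and Itgax (−1.73, SE 0.80). Of the 11 other integrin genes 8 were tested, and 2 were higher in CKO mice after bleomycin at an unadjusted p under 0.05, Itga4 (1.35, SE 0.57), which binds fibronectin and VCAM1 on leukocytes, and its partner Itgb7 (2.78, SE 1.27), followed by Itga9 (−1.0, SE 0.74, edgeR unadjusted p = 0.195). Bleomycin versus PBS in control mice gave Itga4 (−1.24, SE 0.57, edgeR unadjusted p = 0.0442), Itga2 (−1.64, SE 1.27) and Itgb7 (−1.36, SE 1.21).

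Inside the cell integrins are switched on and tied to actin by talins, kindlins and the ILK, PINCH and parvin complex. All 27 genes of this list were tested, and in CKO versus control mice after bleomycin 7 were lower and 4 higher at an unadjusted p under 0.05 (18 lower in all, median log2 fold change −0.49), beside 9.18% of all genes lower and 11% higher. The smallest p belonged to Ptk2b, the kinase Pyk2, which was higher (1.15, SE 0.29), at 112.2 CPM ± 18 in CKO and 50.7 ± 8.77 in control mice (SD, n = 4 each). It was followed by Zyx, zyxin of focal adhesions (−1.31, SE 0.39), and Lims2, the PINCH2 adaptor (−1.66, SE 0.52), with edgeR adjusted p = 0.187, 0.197 and 0.204 for the 3 genes. In control mice 5 were higher and 2 lower after bleomycin at an unadjusted p under 0.05 (median 0.58, beside 6.28% of all genes higher and 7.98% lower), with Zyx at 1.61 (SE 0.39), Lims2 at 1.88 (SE 0.52) and Flna, a filamin that crosslinks actin, at 0.75 (SE 0.25).

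Of 26 matrix and TGF-β genes that these receptors bind or release, 24 were tested, and 20 were lower in CKO than control mice after bleomycin, 6 with an unadjusted p under 0.05 (median log2 fold change −1.77, 9.18% of all genes lower at that level). With the fibroblast score as a covariate that median was −0.21. Col1a1, Col1a2 and Col3a1 are also on the fibroblast marker list. Lamc1, a laminin chain, was at 49.8 CPM ± 19.1 and 135.9 ± 8.38 (SD, n = 4 each, log2 fold change −1.45, SE 0.42, edgeR adjusted p = 0.196). Postn, periostin, which binds Itgav receptors, was at 10.9 CPM ± 19.4 in CKO and 310.0 ± 234.9 in control mice, with no overlap between the groups (−4.83, SE 2.04), and Col4a1, a basement membrane collagen chain, was at 61.2 to 274.2 and 358.8 to 1127.6 CPM (−1.79, SE 0.76). After bleomycin in control mice 22 of the 24 were higher, 2 with an unadjusted p under 0.05 (6.28% of all genes, higher), Lamc1 (1.38, SE 0.42) and Postn (4.37, SE 1.99), while Col4a2 was at 1.51 (SE 0.72, edgeR unadjusted p = 0.0538). Lamc1 was also on the study's list from these samples. Vtn, vitronectin, had at most 0.135 CPM in any library.

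**Figure D5:**
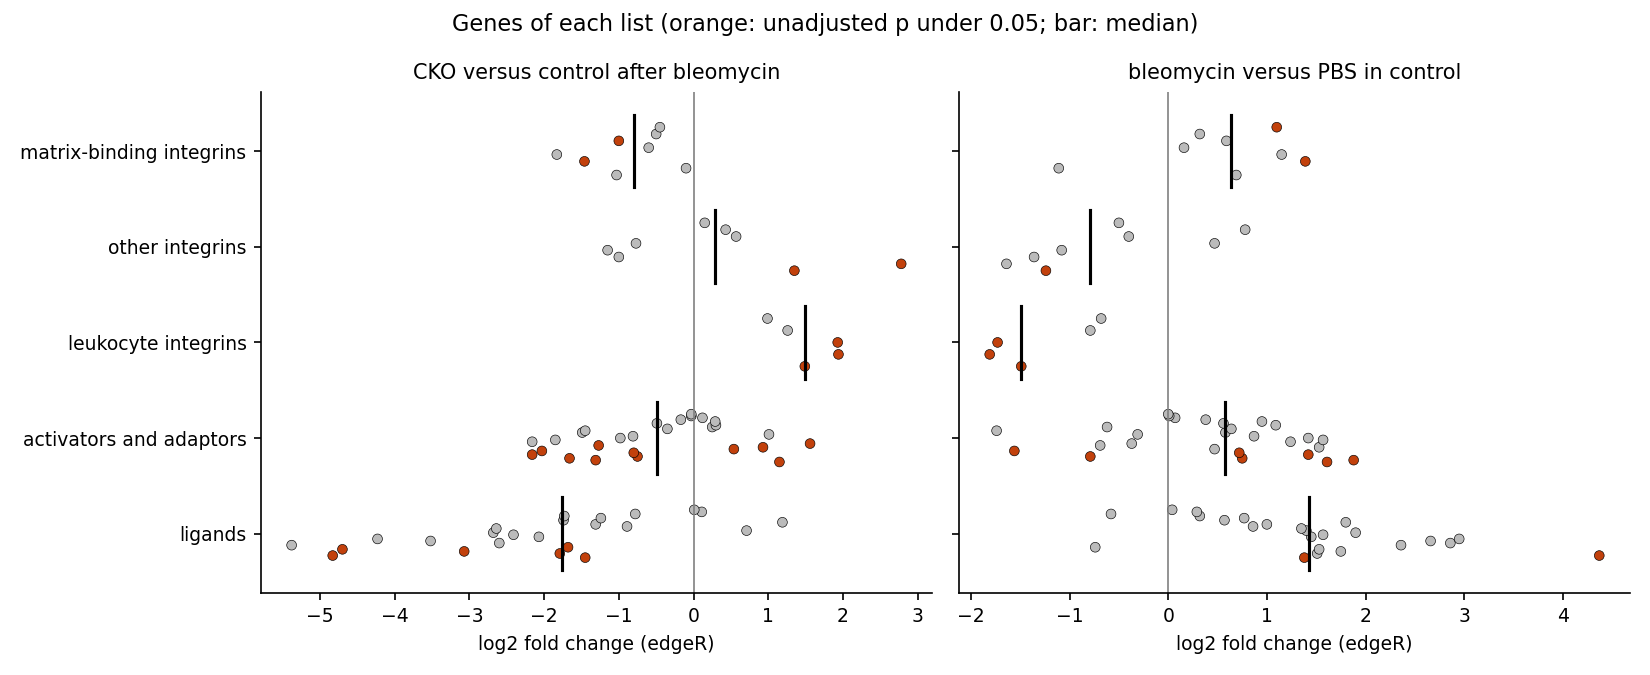
edgeR log2 fold change (horizontal axes) of each gene tested in the 5 lists, for CKO versus control after bleomycin (left) and bleomycin versus PBS in control mice (right), with orange points for an unadjusted p under 0.05 and a bar at the median. The medians of the matrix-binding integrins (−0.80 and 0.64) and the ligands (−1.77 and 1.43) lie on one side of 0 and that of the leukocyte integrins (1.49 and −1.49) on the other, with 4 ligands above 0 on the left and Itga3 and 2 ligands below 0 on the right.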

How the data were processed

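Counts per gene were deposited as whole numbers that the authors made from 75 bp paired-end stranded reads with cutadapt (1.18), HISAT2 (2.1.0) and StringTie on GRCm38 (versions from the submitters' processing notes), so where transcripts overlap a count rests on StringTie's split of their coverage. All 17 columns matched a labelled mouse. From these counts, edgeR 4.0.16 (R 4.3.3) fitted 1 mean per group by its quasi-likelihood test with TMM scaling over 10481 genes (at least 2 libraries above 10 CPM), with Benjamini-Hochberg adjustment over those genes. Single values were compared by 2-sided exact permutation tests of log2 CPM (prior count of 2), 36 on the subunits and 18 on shares, unadjusted. SE is the log2 fold change over the square root of its F statistic. RPKM used union exon lengths of GENCODE M21. Labels give 2 sequencing pools of 8 and 9 without naming their libraries, so the study's batch term could not be used. The table's columns fall in 2 sorted stretches of 8 and 9, which served as a covariate. On simulated counts edgeR and DESeq2 1.42.0 were tested with known changes. Genes named were the 9 subunits, of each list the 3 with the smallest p in each of 2 comparisons, the 3 genes nearest to each subunit by Pearson's r, and Ephb4. The subunits and lists were chosen with earlier results of these data known.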

Additional observations from a re-analysis of the deposited data

Results flagged for a closer look

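Of 36 groups (9 subunits in 4 groups) 5 held a library whose gap to the nearest of the others took up more of the group's log2 CPM range than Dixon's 95% limit allows, where chance gives about 1 in 20. Itga5 was at 8.32 log2 CPM in Ephb4 control bleomycin mouse 1, against 7.08 to 7.20 in the other 3. Itgb3 was at 6.13 in the same library, against 4.14 to 4.33, and that library also had the lowest macrophage score of the 17 (3.61). Itga8 was at 3.09 in Ephb4 CKO PBS mouse 3, against −2.81 to −1.14, and that mouse had the highest fibroblast score of its group (6.14). Itgav was at 5.52 in Ephb4 CKO bleomycin mouse 4, against 6.55 to 6.67, and that mouse had the lowest fibroblast score of its group (0.40). Itgb5 was at 7.22 in Ephb4 control PBS mouse 3, against 6.40 to 6.45, and that mouse had the highest fibroblast score of its group (7.67). The part of cell content in these 5 values was not tested.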

How the results depend on the processing

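Alternatives were DESeq2 with and without the 2 stretches of columns, edgeR with those stretches, RLE normalization, no filter on low counts, the animal number series or the fibroblast or macrophage score as a covariate, animals of number series 12 alone, leaving out the 3 libraries discordant for sex genes, a prior count of 0.5, longest transcripts, each mouse left out in turn and, chosen after seeing the data, the epithelial score as a covariate and differences within each stretch of columns. Itga5 and Itgb1 had a lower fitted level in CKO mice after bleomycin in each of these fits, and a lower mean log2 CPM with a prior count of 0.5 and within each stretch. DESeq2 with and without the stretches called 2 subunits in that comparison (Itga5 and Itgb1) and 1 in bleomycin versus PBS in control mice (Itga5), where edgeR called 0. The cause of the changes below was not tested.
In CKO versus control after bleomycin the sign turned for Itga1 (0.10), Itga8 (1.47), Itgb3 (0.46) and Itgb5 (0.17) with the fibroblast score, for Itga3 (1.06) and Itgb3 (0.81) with the macrophage score, for Itga3 (0.04) with the epithelial score, for Itga3 (1.33) and Itgb3 (0.12) with the number series, for Itgb5 (0.08) in series 12 alone, and for Itga3 with the stretches of columns (0.17 in edgeR, 0.16 in DESeq2). In bleomycin versus PBS in control mice it turned for Itga1 (−0.49), Itga8 (−1.40), Itgav (−0.36) and Itgb3 (−0.71) with the fibroblast score, Itgb3 (−0.47) with the macrophage score, Itga3 (0.14) with the epithelial score, and Itgav (−0.45) and Itgb3 (−0.33) with the number series. After PBS it turned for Itga3 (−0.07 with the fibroblast score, −0.29 with the number series, −0.20 and −0.19 with the stretches in edgeR and DESeq2), Itgav (−0.02) and Itgb3 (−0.03), both with the number series. Within CKO mice it turned for Itga1 (−0.23 with the fibroblast score, −0.18 in series 12, −0.02 with the stretches in both tools) and, without the 3 discordant libraries, for Itga8 (−2.63) and Itgb5 (−0.49). In the interaction it turned for Itga1 (0.26) and Itgb3 (0.09) with the fibroblast score, Itga3 (1.01), Itga8 (−0.26) and Itgb3 (0.43) with the macrophage score, Itga8 (−0.25) with the epithelial score, Itga3 (1.63) and Itgb3 (0.15) with the number series, Itga3 with the stretches (0.36 and 0.35), and Itga8 (−3.53) without the 3 discordant libraries.
Within stretches, with 2 or 3 mice a group, the difference in mean log2 CPM turned against that over all mice for Itga3 (0.23) and Itgb5 (0.02) in CKO versus control after bleomycin, and for Itga3 (0.40) and Itgb3 (−0.23) in bleomycin versus PBS in control mice. After PBS it turned for Itga1 (1.0), Itga3 (0.49), Itga8 (0.57), Itga11 (−1.34), Itgav (−0.36) and Itgb3 (−0.42), and within CKO mice for Itga1 (−0.14), Itga3 (0.65), Itga5 (0.15), Itga8 (−2.68), Itga11 (−0.06), Itgb3 (0.07) and Itgb5 (−0.74).
With the fibroblast score the median log2 fold change in CKO versus control after bleomycin was −0.21 for ligands and −0.19 for adaptors, and in bleomycin versus PBS in control mice −0.05 for ligands, 0.07 for adaptors and −0.04 for leukocyte integrins. Without the 3 discordant libraries it was −2.74 for ligands and −0.85 for adaptors in the former. Adaptors were at 0.09 with the number series and the other integrins at 0.05 with the epithelial score in the latter.
Leaving out 1 mouse at a time turned the sign of some values with no call. Log2 fold changes in CKO versus control after bleomycin then ran from −0.71 to 0.23 for Itga3 and −0.78 to 0.24 for Itgb3. In bleomycin versus PBS in control mice they ran from −1.50 to 0.25 for Itga3, −0.11 to 0.49 for Itgav and −0.42 to 0.87 for Itgb3. After PBS they ran from −0.78 to 0.29 for Itga1, −1.95 to 1.40 for Itga3, −4.89 to 2.0 for Itga8, −0.10 to 0.49 for Itgav, −0.34 to 0.12 for Itgb1 and −0.34 to 0.70 for Itgb3. Within CKO mice they ran from −0.27 to 0.43 for Itga1, −1.85 to 0.75 for Itga3, −0.14 to 4.19 for Itga8 and −0.62 to 0.15 for Itgb3, and in the interaction from −1.49 to 1.85 for Itga3, −3.82 to 3.05 for Itga8 and −1.21 to 0.07 for Itgb3. Differences in mean log2 CPM ran from −1.03 to 0.02 (Itga3) and −0.64 to 0.10 (Itgb3) after bleomycin, and from −1.17 to 0.61 (Itga3), −0.04 to 0.64 (Itgav) and −0.17 to 0.99 (Itgb3) in control mice. Share differences ran from −1.24 to 0.21 points (Itga1) and −0.0621 to 1.24 (Itgb3) after bleomycin, and −0.0612 to 1.37 (Itga1) and −0.978 to 0.00146 (Itgb3) in control mice. With 4 against 3 mice exact tests cannot reach 0.05. No paired analysis was possible because the labels give no replicate numbers that pair mice.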
